A study of Mus musculus with 16 samples.

Results

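Aldo-keto reductases are NADPH-linked enzymes that reduce the carbonyl groups of sugars, aldehydes, ketones and steroids. The list named 7 of them by gene symbol: Akr1a1, Akr1b3, Akr1c6, Akr1c13, Akr1c14, Akr1d1 and Akr7a5. Of these, 6 were measured among 18194 genes, through 12 probe sets that name 1 gene, and Akr1b3 was not analysed here. Each gene is represented by its brightest probe set (mean over the 16 arrays), and the 4 probe sets of Akr1a1 are described together. The family was selected on the difference between diets in Akr1a1, one of the genes that differed most, so differences between diets are given for the 6 genes as a description, with no test.

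The livers came from male KK-Ay mice, 11 weeks old, an obese strain in which the yellow agouti allele brings on type 2 diabetes. In the MSE group, 8 mice ate an AIN-93G diet containing 0.1% of a maple syrup extract (MSE), and in the normal group 8 mice ate that diet without it. Both groups carried the agouti allele, were pair-fed for 43 days and were killed after 16 h without food, and no lean strain was among the samples used here. Each array held RNA of 1 mouse, measured on 3′ expression arrays after biotin labelling.

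In liver the family works on several routes. AKR1A1, aldehyde reductase, turns glucuronate into gulonate on the way to ascorbate, which mice make themselves. AKR1D1 is the steroid 5-beta-reductase that sets the ring shape of bile acids, and the AKR1C enzymes are hydroxysteroid dehydrogenases that also take aromatic and xenobiotic substrates. AKR7A5 reduces aflatoxin dialdehyde and succinic semialdehyde, and AKR1B3 is aldose reductase of the polyol pathway.

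Promoter sequences were available for the same 6 genes in RefSeq, build GRCm38.p6. The 250 bases before the start are shown for Akr1a1, the gene with the clearest difference between diets, and for Akr1c6, Akr1c14 and Akr1d1, of which Akr1c14 varied with each of the others from mouse to mouse as deposited. Akr1c13 is shown beside its paralog Akr1c12, because a probe set that names both was not used. Capitals mark a match to CCAAT or TATAAA on either strand.
Akr1a1, chr4:116651675-116651924, minus strand: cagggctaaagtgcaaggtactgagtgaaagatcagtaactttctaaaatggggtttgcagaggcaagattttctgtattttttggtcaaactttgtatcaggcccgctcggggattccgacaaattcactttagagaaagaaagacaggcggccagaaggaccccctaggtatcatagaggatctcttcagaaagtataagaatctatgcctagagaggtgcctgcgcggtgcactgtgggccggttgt
Akr1c6, chr13:4434093-4434342, plus strand: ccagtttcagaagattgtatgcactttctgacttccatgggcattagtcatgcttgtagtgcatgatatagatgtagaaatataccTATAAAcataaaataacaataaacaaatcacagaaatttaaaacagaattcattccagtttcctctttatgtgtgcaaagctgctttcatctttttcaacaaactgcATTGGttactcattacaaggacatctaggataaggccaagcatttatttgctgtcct
Akr1c14, chr13:4059341-4059590, plus strand: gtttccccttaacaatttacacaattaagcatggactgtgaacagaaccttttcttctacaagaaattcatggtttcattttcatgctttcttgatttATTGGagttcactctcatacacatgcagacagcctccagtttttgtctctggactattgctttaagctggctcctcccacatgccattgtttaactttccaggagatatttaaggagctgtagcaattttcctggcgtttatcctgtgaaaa
Akr1d1, chr6:37529923-37530172, plus strand: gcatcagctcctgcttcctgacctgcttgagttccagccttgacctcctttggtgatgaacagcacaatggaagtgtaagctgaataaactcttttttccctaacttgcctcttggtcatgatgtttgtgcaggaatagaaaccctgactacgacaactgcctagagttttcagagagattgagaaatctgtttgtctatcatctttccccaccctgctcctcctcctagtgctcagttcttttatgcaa
Akr1c13, chr13:4190937-4191186, plus strand: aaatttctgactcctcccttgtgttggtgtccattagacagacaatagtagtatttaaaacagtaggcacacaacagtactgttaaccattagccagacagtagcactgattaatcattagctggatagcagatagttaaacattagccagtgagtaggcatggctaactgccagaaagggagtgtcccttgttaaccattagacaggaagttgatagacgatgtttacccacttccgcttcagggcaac
Akr1c12, chr13:4279400-4279649, minus strand: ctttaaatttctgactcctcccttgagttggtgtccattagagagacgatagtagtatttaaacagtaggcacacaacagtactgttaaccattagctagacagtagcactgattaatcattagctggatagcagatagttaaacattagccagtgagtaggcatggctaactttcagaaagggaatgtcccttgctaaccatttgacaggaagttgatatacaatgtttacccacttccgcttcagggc

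The Akr1c12 and Akr1c13 promoters were 92.5% identical over 254 aligned columns. Akr1c13 and Akr1c14 were 48.4% identical, close to the 49.2% between Akr1c6 and Akr1c14. Both values lie within the range of pairs that are not both Akr1c genes. That range was 45.1% (Akr1c6 with Akr7a5) to 51.4% (Akr1c12 with Akr1d1). How far the probe sets of Akr1c12 and Akr1c13 separate their transcripts was not tested. The search covered 5 motifs on both strands, none of which overlapped in these windows. CCAAT was in the windows of Akr1c6 and Akr1c14 and in 33.8% of all 32851 promoters, and TATAAA was in that of Akr1c6 and in 12.4% of promoters. GGGCGG, a GC box, was in that of Akr7a5 and in 32.7% of promoters. The antioxidant response element core TGACNNNGC (10.2% of promoters) and the HNF1 half-site GTTAAT (6.43%) had no match in the windows of these 6 genes. The Akr7a5 window was 68.8% G and C and that of Akr1a1 46.8%, against 34.0% in Akr1c6 and a median of 52.4% over all promoters.

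The deposited values are on a log scale, taken as log2 from their range of 5.05 to 14.6, and vary very little between mice. Over the 16 mice, probe sets had a median SD of 4.98 millionths of a log2 unit. Values of a mouse are therefore given as the deviation from the probe set's mean over all 16 mice, in millionths of a log2 unit, and are not fold changes. A standardized difference is the MSE mean minus the normal mean, divided by the pooled SD within diets. Overlap is counted by setting each MSE mouse against each normal-diet mouse, which makes 64 pairs. Albumin, a hepatocyte product, had a mean level of 14.34 log2 units, and 7 hepatocyte markers lay between 10.95 and 14.34. Across all genes, limma called 0 of 18194 at an adjusted p under 0.05 (0.0%), while 741 were lower and 471 higher in MSE livers at an unadjusted p under 0.05.

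As deposited, Akr1a1 was lower in MSE livers with each of its 4 probe sets, and after quantile normalization with 1 of them. With the probe set of the highest level (1430123_a_at, mean 12.39 log2 units), the MSE mice lay at -6.61, -2.66, -7.10, -1.75, -4.37, -3.57, -0.647 and 0.273, in the order of replicates 1 to 8, against 3.96, 2.66, 5.50, 0.903, 5.98, 5.79, 1.96 and -0.357 in the normal-diet mice. Apart from MSE replicate 8 and normal-diet replicate 8, every MSE mouse was below 0 and every normal-diet mouse above it. The means were -3.30 ± 2.65 in MSE livers and 3.30 ± 2.39 in normal-diet livers (SD, n = 8 each), a standardized difference of -2.62, and the MSE mouse was lower in 63 of 64 pairs. At least 63 of 64 pairs in this direction were reached by 11 of 18194 genes, or 0.0605%, and full separation by 0.0275%. This contrast led to the choice of the gene, so the shares are given as a description.

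The other Akr1a1 probe sets had wider spreads and larger differences. On 1451035_a_at the MSE mice lay at -25.3, -15.3, -37.4, -6.52, -16.7, -7.86, -4.10 and -15.8, against -1.84, 14, 24.8, -0.242, 19.1, 39.7, 29.1 and 4.25 in the normal-diet mice. Here the diets did not overlap (64 of 64 pairs lower in MSE livers), as in 0.02% of the 45101 probe sets, and the standardized difference was -2.47. For 1435011_x_at the MSE mean was -15.1 ± 11.9 and the normal-diet mean 15.1 ± 11.1 (SD, n = 8 each), a standardized difference of -2.63 with 61 of 64 pairs lower in MSE livers. MSE replicate 7, at 8.95, was the exception there, above 3 normal-diet mice. On 1430124_x_at the diets overlapped more, from -28.0 to 3.80 in MSE livers and from -3.55 to 25.5 in normal-diet livers, with a standardized difference of -1.72 and 56 of 64 pairs lower.

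**Figure D1:**
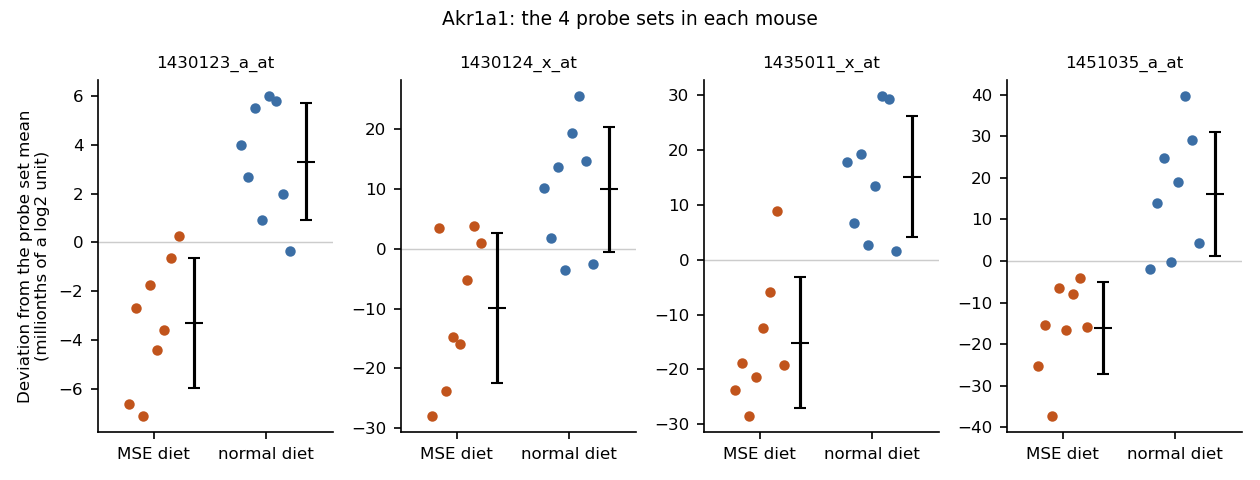
Each panel is 1 probe set of Akr1a1, and each point is 1 mouse, as its deviation from the probe set's mean in millionths of a log2 unit (bars are mean ± SD, n = 8 each, and the vertical scales differ). MSE livers lie lower in all 4 panels as deposited, in 63, 56, 61 and 64 of 64 pairs from left to right, and the direction depends on the array scaling. After centring on array medians the standardized differences are 0.21, -0.19, -0.49 and -0.51 from left to right. The difference in array medians between diets rested on MSE replicate 6. After quantile normalization 1 of 4 probe sets is lower, 1 is higher and 2 have no spread.

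The 4 probe sets also followed each other within diets. Over the 16 deviations from the diet means, Pearson's r between probe sets ran from 0.54 to 0.84. These values share the gene and the arrays, and the x and a suffixes mark probe sets whose probes can match related sequences or several transcripts, so they are not independent measurements. In the authors' deposited table, the rate for lower expression in MSE livers was 0.00839 for 1451035_a_at, 0.00939 for 1435011_x_at, 0.0933 for 1430124_x_at and 0.706 for 1430123_a_at. Rates under 0.05 were given to 2.74% of all probe sets for lower and to 1.98% for higher expression in the authors' deposited table.

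The difference of Akr1a1 on 1430123_a_at, -6.60 millionths, was smaller than the difference in array medians between diets and larger than that in the median deviation of genes. Array medians differed between diets by -13.1 millionths, and this rested on MSE replicate 6, whose array median was 103 millionths below the mean of all arrays (a deviation of -103). Without that mouse the difference between diets was 0.689 millionths. The median deviation over all 18194 genes, was 0.152 millionths in MSE replicate 6 and lay between -0.518 and 0.308 in all 16 mice, with a difference between diets of -0.136. Centring on array medians put the median difference of all genes at 13.001 millionths, against -0.084 as deposited. After it, the standardized difference of Akr1a1 turned to 0.21 on 1430123_a_at and was -0.19, -0.49 and -0.51 on 1430124_x_at, 1435011_x_at and 1451035_a_at. After centring on the median deviation of genes the 4 values were -2.61, -1.71, -2.63 and -2.46. Quantile normalization left 1430123_a_at and 1451035_a_at with no spread, turned 1430124_x_at to 0.25 and put 1435011_x_at at -0.15.

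**Figure D2:**
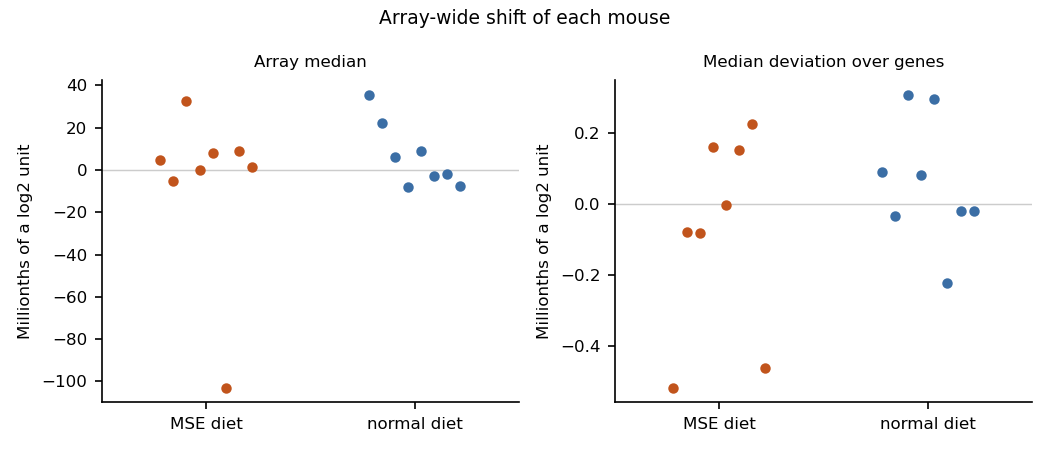
Each point is 1 mouse, with the deviation of its array median from the mean of all array medians (left) and the median over genes of its deviation from the gene means (right), in millionths of a log2 unit. On the left MSE replicate 6 stands at -103, while on the right all 16 mice lie between -0.518 and 0.308.

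Of all 18194 genes, 9401 had a lower mean in MSE livers as deposited, 1344 after centring on array medians and 8452 after quantile normalization. Beside the lower Akr1a1, all 9 markers of macrophages and Kupffer cells had lower means in MSE livers as deposited, 5 of 9 after centring on array medians and 3 of 9 after quantile normalization. Their summed level was 66.2667 to 66.2675 log2 units in MSE livers and 66.2669 to 66.2677 in normal-diet livers, and none passed limma over all genes (smallest adjusted p 0.799). Of the 7 hepatocyte markers 3 were lower and 3 higher, and albumin had a standardized difference of 0.0. All 3 neutrophil markers and both red blood cell markers were lower, with Alas2, of red cell haem synthesis, at -1.57. Of the lymphocyte markers 4 of 5 were higher, and of the sinusoidal endothelium markers 4 of 6. The lymphocyte markers had a median level of 5.82 log2 units and the neutrophil markers 6.13, near the array medians of 6.04. Those of macrophages and Kupffer cells stood at 7.48 and those of endothelium at 7.5. The endothelial markers were split, with Kdr, an endothelial receptor, at 1.80 and Stab2 at -1.12 and Lyve1 at -0.12. After centring on array medians 2 of 3 neutrophil and 1 of 2 red blood cell markers were lower. In that setting 5 of 5 lymphocyte and 5 of 6 endothelial markers were higher, as were 16850 of all 18194 genes. Quantile normalization gave 3 of 3 and 1 of 2 lower, and 2 of 5 and 5 of 6 higher. The part of these cells in the Akr1a1 difference was not tested, and in whole liver fewer cells of a type and less RNA per cell cannot be told apart.

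The 3 Akr1c genes on the list differed less than their spread. Akr1c13, an NAD-linked dehydrogenase of xenobiotic and steroid alcohols, lay between -122 and 55.1 with a median of -5.0 in MSE livers, against -62.3 to 134 with a median of 18.8 in normal-diet livers. Its means were -23.0 ± 67.3 in MSE livers and 23.0 ± 66.5 in normal-diet livers (SD, n = 8 each), a standardized difference of -0.69, lower in 43 of 64 pairs. Normal-diet replicate 6 was the highest mouse and MSE replicate 3 the lowest. For Akr1c14, a 3-alpha-hydroxysteroid dehydrogenase, the MSE mice ran from -121 to 83.1 and the normal-diet mice from -56.0 to 146, with a standardized difference of -0.53 and 41 of 64 pairs lower in MSE livers. The same mice marked the ends, MSE replicate 3 at -121 and normal-diet replicate 6 at 146. Akr1c13 turned to 1.08 and Akr1c14 to 0.25 after quantile normalization. The authors' deposited rate for lower expression in MSE livers was 0.039 for Akr1c13, 0.0501 for Akr1c14 and 1.12 for Akr1c6. Rates under 0.05 in that direction were given to 2.74% of all probe sets.

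Akr1c6, a 17-beta-hydroxysteroid dehydrogenase with a mean level of 12.80 log2 units, showed a standardized difference of -0.03, and the MSE mouse was lower in 31 and higher in 33 of 64 pairs. Its values were the narrowest of the 6 genes, between -1.95 and 0.999 in MSE livers and between -2.70 and 3.92 in normal-diet livers. The SD was 0.999 in MSE livers and 2.29 in normal-diet livers. The sign of its difference turned in 7 of the 16 fits that left out 1 mouse and under both ways of centring.

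Akr1d1 was the most variable of the 6. Its mice lay at 632, 613, -513, 424, -579, -74.8, -814 and 364 in MSE livers, replicates 1 to 8, against -756, -911, -231, 735, 21.9, 904, -123 and 308 in normal-diet livers. The diets covered the same range, with a standardized difference of 0.02 and 33 of 64 pairs higher in MSE livers. That sign turned in 8 of the 16 fits that left out 1 mouse. A second probe set gave 0.05 and also 33 of 64 pairs, and both followed each other within diets (r = 0.81 over 16 mice, 1 gene on the same arrays). The pooled SD within diets was 614 millionths, larger than in 98.5% of genes, against 2.52 for Akr1a1 (larger than in 19.8%) and 1.77 for Akr1c6 (10.3%). What the scaling of the deposited values contributed to these spreads was not tested.

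Akr7a5 overlapped throughout on the probe set of the highest level, from -16.6 to 8.87 in MSE livers and from -7.08 to 8.92 in normal-diet livers, with a standardized difference of -0.14 and 36 of 64 pairs lower. MSE replicate 1 was the lowest mouse, at -16.6, and the sign turned without it, without normal-diet replicate 2, and after centring on array medians. A second probe set followed the first within diets (r = 0.93) and gave -0.23. The third, at a mean level of 5.43 log2 units near the bottom of the scale, gave 0.24 and did not follow the first (r = -0.03).

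**Figure D3:**
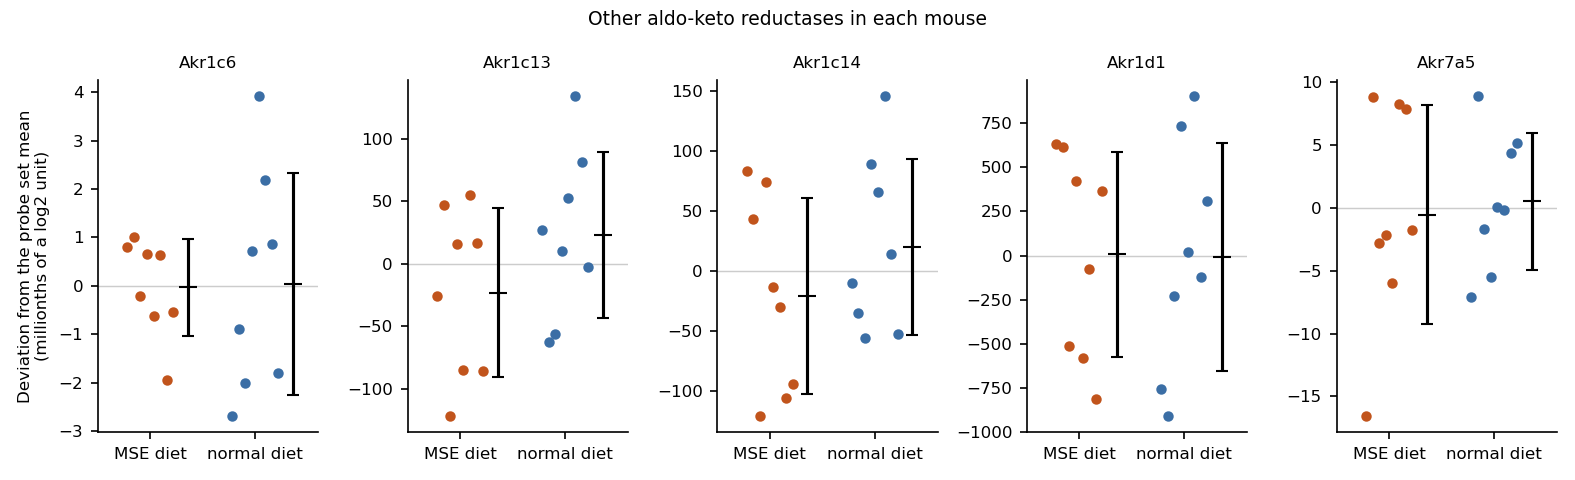
Each panel is 1 gene by the probe set that stands for it, and each point is 1 mouse, as its deviation from the probe set's mean in millionths of a log2 unit (bars are mean ± SD, n = 8 each, and the vertical scales differ). The diets overlap in all 5 panels, with standardized differences between -0.69 and 0.02 as deposited, and after quantile normalization Akr1c13 and Akr1c14 turn to 1.08 and 0.25.

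As deposited, 5 of the 6 genes had a lower mean in MSE livers, Akr1c6 by -0.03 SDs only, as did 51.7% of all genes. The count was 4 of 6 after centring on the median deviation of genes, 2 of 6 after centring on array medians, and 0 of 6 after quantile normalization, where 3 were higher and 3 had no spread left. Of all 18194 genes, 8900, 1344 and 8452 were lower after these scalings, in that order. The median standardized difference was -0.33 over the 6 genes and -0.02 over all genes.

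Mouse-to-mouse variation within diets played no part in choosing the genes, and was tested over the 15 pairs of the 6 genes on deviations from the diet mean. As deposited, Akr1c6 and Akr1c14 varied together, with r = 0.70 (permutation p = 0.00136, adjusted over the 15 pairs 0.0204) and Spearman's rho = 0.74 (permutation p = 8.6e-04, adjusted 0.0129). The relation held in each diet, with r = 0.75 in MSE livers and 0.78 in normal-diet livers, and r was 0.82 without the 2 mice farthest from the Akr1c6 median. Mice high in one gene were high in the other, among them normal-diet replicates 5 and 6. Akr1c14 and Akr1d1 were the second pair, with r = 0.70 (permutation p = 0.00488, adjusted 0.0366) and rho = 0.71 (permutation p = 0.00342, adjusted 0.0256). That relation gave r = 0.71 in MSE livers and 0.70 in normal-diet livers, and 0.58 without the 2 mice farthest from the Akr1c14 median. For Akr1c6 and Akr1d1, rho passed (0.70, permutation p = 0.00515, adjusted 0.0257) while r did not (0.56, permutation p = 0.036, adjusted 0.135).

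As deposited, no pair with Akr1a1 passed, and its r with the other 5 genes lay between -0.01 and 0.30 (permutation p adjusted over the 15 pairs 0.518 to 0.979). With Akr7a5, r lay between -0.34 and 0.27 (adjusted permutation p 0.487 to 0.956). All pairs share the 16 arrays, and r with the median deviation over genes was 0.25 for Akr1a1, -0.10 for Akr1c6, 0.10 for Akr1c13, -0.21 for Akr1c14, -0.43 for Akr1d1 and 0.38 for Akr7a5. The Akr1c6 and Akr1c14 pair passed in 15 of the 16 fits that left out 1 mouse, the exception being normal-diet replicate 2, without which 0 pairs passed. The Akr1c14 and Akr1d1 pair passed in 6 of 16. It was lost without MSE replicate 1, 2, 3, 4, 6 or 7 or normal-diet replicate 2, 4, 6 or 7. Without normal-diet replicate 5, 3 pairs passed. The calls also depended on the scaling. After quantile normalization 0 pairs passed, with 3 of the 6 genes, Akr1a1, Akr1c6 and Akr7a5, left without spread. Akr1c14 with Akr1d1 could therefore be tested in that setting, and Akr1c6 with Akr1c14 could not. After centring on array medians 9 passed, both of these pairs and Akr1a1 with Akr1c6, Akr1c13 and Akr7a5 among them. That centring subtracts 1 value per mouse from every gene, and in MSE replicate 6 this value deviated by -103 millionths. The pooled SDs were 2.52 for Akr1a1, 1.77 for Akr1c6 and 7.27 for Akr7a5. Joint variation of such genes therefore cannot be told from the shared subtraction in that setting. Centring on the median deviation of genes kept both pairs, and with the mean of probe sets Akr1c6 with Akr1c14 was the 1 pair that passed.

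**Figure D4:**
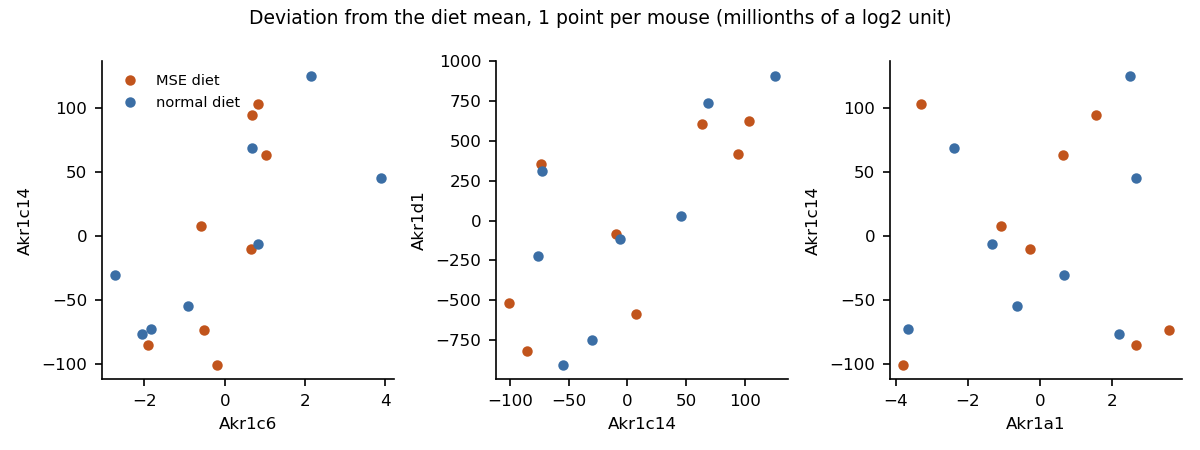
Each point is 1 mouse, placed by its deviation from the diet mean for 2 genes, in millionths of a log2 unit. Akr1c6 with Akr1c14 and Akr1c14 with Akr1d1 rise together (r = 0.70 in both), while Akr1a1 with Akr1c14 has r = 0.04. The values are as deposited. After quantile normalization 0 pairs passed, but Akr1a1 and Akr1c6 had no spread left. Of these pairs only Akr1c14 with Akr1d1 could then be tested.

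The genes most like each member were ranked by Pearson's r over the same 16 deviations, as a description of the highest among all genes. For Akr1a1 they were Syngr3 (r = 0.89), Il1rapl2 (0.82) and Ro60 (0.81), all 3 of which had a higher mean in MSE livers, opposite to Akr1a1. Akr1c13 was followed by the glutathione-linked enzyme genes Mgst3 (0.90) and Gsta3 (0.86) and by Serpina6 (0.86), which encodes corticosteroid-binding globulin. Akr1c6 was closest to Chtop (0.85), Dolk (0.83) and the carboxylesterase gene Ces1c (0.80), and Akr1c14 to Ccdc90b (0.84), Rnf128 (0.83) and again Ces1c (0.80). Akr1d1 was closest to Nnt (0.92), the mitochondrial transhydrogenase that makes NADPH, then Rnf128 (0.90) and Cbx1 (0.88). For Akr7a5 they were Lamtor4, Pef1 and Nedd8 (0.91 each).

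Akr1c14, Akr1c13 and Akr1c6 lie in 1 cluster of 9 genes on chromosome 13, with Akr1c18, Akr1c19, Akr1c12, Akr1c20, Akr1c21 and Akr1e1. The cluster was taken up after the values were seen, and its genes were not independent: r within diets exceeded 0.5 in 10 of 36 pairs. All 9 had a lower mean in MSE livers as deposited, Akr1c6 by -0.03 SDs with 31 of 64 pairs lower. Between 6 (without normal-diet replicate 6) and 9 were lower when 1 mouse was left out. Of all 18194 genes, 9401 were lower as deposited, 8900 after centring on the median deviation of genes, 1344 after centring on array medians and 8452 after quantile normalization. The cluster count after these scalings was 8, 5 and 3, in that order. Akr1c20, a hydroxysteroid dehydrogenase gene, had the largest standardized difference, -1.30, with 52 of 64 pairs lower in MSE livers. Its means were -80.0 ± 111 in MSE livers and 80.0 ± 135 in normal-diet livers (SD, n = 8 each), and it did not pass limma over all genes (adjusted p 0.654). Akr1c18, the 20-alpha-hydroxysteroid dehydrogenase that inactivates progesterone, was named after its values were seen, at -0.83 (limma adjusted p 0.816) and Akr1c19 at -0.75 (0.848). Akr1c12 stood at -0.13 and Akr1e1, which reduces anhydrofructose, at -0.08. After quantile normalization Akr1c19, Akr1c20 and Akr1e1 turned direction, and after centring on array medians Akr1c12 and Akr1e1 did.

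**Figure D5:**
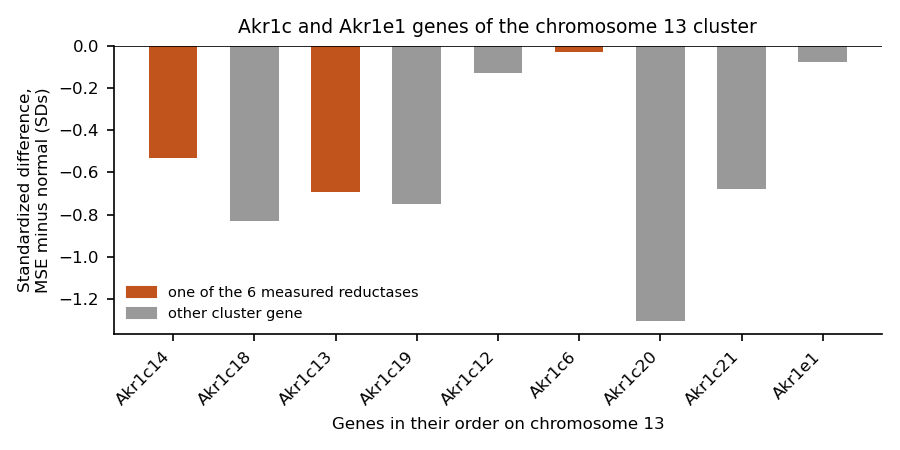
Bars give the standardized difference (MSE minus normal, in SDs within diets, n = 8 each) of the 9 genes in their order on chromosome 13, with the 3 listed reductases in orange. All bars lie below 0 as deposited, from -0.03 for Akr1c6 to -1.30 for Akr1c20. After centring on array medians 5 of the 9 do (1344 of all 18194 genes), and after quantile normalization 3 do (8452 of all genes).

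Genes on the routes these enzymes serve were counted from lists chosen for their role, with limma adjusted over all 18194 genes. Of all 18194, 9401 had a lower mean in MSE livers as deposited, 1344 after centring on array medians and 8452 after quantile normalization. On the glucuronate and ascorbate route around Akr1a1, 8 of 9 genes had a lower mean in MSE livers as deposited, 4 of 9 after centring on array medians and 1 of 9 after quantile normalization, and 0 passed (smallest adjusted p 0.629). Ugdh, which makes UDP-glucuronate, was at -1.37 and lower in 54 of 64 pairs. Rgn, the gluconolactonase, was at -1.15, and Gulo, the last enzyme of ascorbate synthesis, at -0.72. Ugp2, which makes UDP-glucose, was at 0.51, the 1 higher gene, and the xylulose reductase gene Dcxr was at -0.25. Ugdh, Gulo and Dcxr turned direction after quantile normalization, which left Rgn and Ugp2 with no spread, and Rgn turned after centring on array medians. At an unadjusted p under 0.05, 2 of the 9 were lower and 0 higher, beside 4.07% lower and 2.59% higher over all genes.

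Of the other aldo-keto reductase genes, 12 of 13 were measured, and 10 had a lower mean in MSE livers as deposited, 3 after centring on array medians and 7 after quantile normalization (0 passed, smallest limma adjusted p 0.654). Of all 18194 genes, 9401, 1344 and 8452 were lower, in the same order. Among the 10, Akr1c12, Akr1c18, Akr1c19, Akr1c20, Akr1c21 and Akr1e1 were already counted above with the chromosome 13 cluster. Akr1b8 was at -0.63 as deposited and turned direction after centring on array medians. In the polyol and fructose list, 1 of 4 measured genes was lower and 0 passed (smallest adjusted p 0.848), with ketohexokinase, Khk, at -0.66 as deposited and turned after quantile normalization. Aldehyde and carbonyl clearance was lower in 12 of 20 genes, and in 5 of 20 after centring on array medians and after quantile normalization, with 0 passing (smallest adjusted p 0.725). Aldh2, the mitochondrial aldehyde dehydrogenase, was at -0.73 and Cbr1, a carbonyl reductase, at -0.43, while Glo1, glyoxalase, was at 0.45 and Adh5, the glutathione-dependent formaldehyde dehydrogenase, at 0.11. Aldh2 turned direction after centring on array medians, and quantile normalization left it and Adh5 with no spread.

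On the bile acid and steroid route around Akr1d1, 12 of 18 measured genes had a higher mean in MSE livers as deposited. The count was 15 after centring on array medians and 9, with 4 lower, after quantile normalization. Of all 18194 genes, 8791 were higher as deposited, 16850 after centring on array medians and 7665 after quantile normalization. On this route 0 genes passed (smallest limma adjusted p 0.385, for Hsd17b11). Hsd17b11, a hydroxysteroid dehydrogenase named after its values were seen, was at 2.03 and higher in 59 of 64 pairs. Cyp7a1, the rate-limiting enzyme of bile acid synthesis, was at -0.12, and Cyp8b1, which adds the 12-alpha hydroxyl group, at 0.94. Cyp27a1, the sterol 27-hydroxylase, was at -1.55 and lower in 57 of 64 pairs (adjusted p 0.568), and Hsd3b7 was at 0.55, turned after quantile normalization. Of genes regulated by Nrf2, the redox-responsive factor, 14 of 19 were lower as deposited, 9 after centring on array medians and 5 after quantile normalization, with 0 passing (smallest adjusted p 0.555). The counts of lower genes among all 18194 were 9401, 1344 and 8452, in the same order. Nqo1 was at -0.23, Gclc at 0.03 and Txnrd1 at -0.44 as deposited, and Nqo1 and Txnrd1 turned direction under both of the other scalings.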

How the data were processed

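Expression was measured in liver of 16 mice, 8 per diet. The authors deposited log2 values (the base is inferred from their range) for 45101 probe sets. R 3.2.2 was used, per the submitters' processing notes, and how probes were summarized and normalized is not given in the sources used here. Per the file headers, the authors' deposited table also holds 2 false discovery rates per probe set, which can exceed 1 and are treated as a score. The labels call the mice biological replicates. Arrays give no counts, so the number of mice limits precision.

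Of the probe sets, 34958 named 1 gene in the platform annotation and 932 several. The fit was limma 3.58.1 in R 4.3.3 (lmFit, eBayes, two-sided, Benjamini-Hochberg, threshold 0.05) on 18194 genes as deposited. It was tested on data simulated for these 18194 genes and both diets, with independent normal noise and 200 genes changed. There it recovered 1.19% of genes changed by 1 SD, 27.5% of those changed by 2 SD and 79.7% of those changed by 3 SD. Correlations over 15 pairs, with Akr1b3 left out, used 100000 permutations within diets in Python 3.11.15. The members and lists were chosen with earlier results of these data known. Named were all members, 25 pathway genes chosen for their role, of which Akr1b7, Sord and Srd5a1 were not analysed here, and the 3 genes most like each member. Akr1c18, Akr1c21, Hsd17b11 and the markers Alas2, Kdr, Stab2 and Lyve1 were named after their values were seen. Alternatives were quantile normalization, centring, upper-level genes, trend and robust estimation, array weights, a replicate block, the mean of probe sets, the other table and leaving out each mouse. Centring on the median deviation of genes and the count over Akr1a1 probe sets were added after seeing the data.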

Additional observations from a re-analysis of the deposited data

Results flagged for a closer look

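Dixon's ratio, the gap between an extreme mouse and its neighbour over the range of its diet group, passed its 95% critical value in 3 of the 68 groups examined. Chance gives about 1 in 20. All were among normal-diet mice and none in a probe set of the 6 aldo-keto reductases. The ratio was 0.5965 for Akr1c20 (replicate 2, low), 0.6204 for Adh5 (replicate 3, high) and 0.5261 for Glo1 (replicate 3, low).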

How the results depend on the processing

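Akr1a1 kept its lower mean in MSE livers in all 16 fits that left out 1 mouse (standardized difference -2.99 to -2.48 on the main probe set, and 4 of 4 probe sets each time) and with the replicate block (-1.96). After quantile normalization 1 of its 4 probe sets was lower, 1 higher and 2 had no spread, as had 46.4% of genes at a level of 10 log2 units or more. Of the 6 genes 0 were then lower, against 2 after centring on array medians, when 1344 of all 18194 genes were lower, and 4 to 6 with 1 mouse left out. Limma called 1 gene among the upper part of genes by level, 1 with the replicate block, 1 at an adjusted p under 0.1 and 0 to 2 with 1 mouse left out (1 without MSE replicate 7, 2 without normal-diet replicate 2). Genes at an unadjusted p under 0.05 numbered 230 after centring on array medians, 795 among the upper part of genes and 1020 to 1394 with 1 mouse left out. After quantile normalization 0 member pairs passed, and Akr1c6 with Akr1c14 could not be tested, as Akr1c6 had no spread left. Member pairs that passed numbered 1 with the mean of probe sets and 0 to 3 with 1 mouse left out. After centring on array medians 9 passed, but there every gene of a mouse shares the subtracted value. Same-numbered mice of both diets correlated between -0.03 and 0.22 over genes, above 0.1 for 5 of 8 numbers, and since not all 8 passed that mark the numbers were not taken as pairs. Each mouse was set against the 8 mice of the other diet, and 9 of 16 correlated best with their own number. This is a hint of pairing from the data. The diets were pair-fed, and whether mice of the same number were matched is not given in the labels. The permutations for pairs of genes took no account of the numbers. With the block, the genes at an unadjusted limma p under 0.05 came to 1614, against 1212 without it, and 5 of the 6 genes were lower. Precision rests on 8 mice a diet and on differences of a few millionths of a log2 unit.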

Other observations

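The authors' deposited table gives Akr1d1 a rate under 0.05 in both directions, 0.0276 for higher and 0.0372 for lower expression in MSE livers, on a probe set where the MSE mouse was higher in 33 of 64 pairs. Rates under 0.05 both ways are held by 157 probe sets of the authors' deposited table. The median pooled SD within diets of these probe sets was 2770 millionths of a log2 unit, and their median standardized difference, without sign, was 0.21. For the 43130 probe sets with neither rate under 0.05 the values were 4.71 millionths and 0.35. With a rate under 0.05 for lower expression only, 1078 probe sets had values of 150 millionths and 0.76. With a rate under 0.05 for higher expression only, 736 probe sets had values of 170 millionths and 0.78. Akr1c18, with an SD of 709 millionths and a standardized difference of -0.83, has a rate of 1.72e-05 for lower expression in the authors' deposited table, and the Akr1a1 probe set with an SD of 2.52 millionths and a standardized difference of -2.62 has a rate of 0.706 there.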
